A study of Mus musculus with 15 samples.

Results

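The hair shaft keratins are the hard keratins that fill the cells of the growing hair fibre. They were described here in mouse skin as a list of 8 genes given by symbol (Krt31, Krt33a, Krt33b, Krt34, Krt35, Krt81, Krt85 and Krt86). 7 of the 8 were matched to a row of the deposited table of 56059 genes, and all 7 were among the 18651 genes tested. Krt85 was not analysed here.

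The RNA came from whole skin of mice after bone marrow transplantation, used as a mouse model of chronic graft-versus-host disease with hardened skin (sclerodermatous), killed 7 weeks after the transplant. The syngeneic group (4 libraries) had received syngeneic marrow and the allogeneic group (3 libraries) allogeneic marrow, and both were given 0.4% methylcellulose by mouth each day from day 21 to day 49. A further 4 libraries came from allogeneic recipients given Wnt-C59 at 5 mg/kg over the same days, and 4 from allogeneic recipients given Wnt-C59 at 5 mg/kg together with belumosudil at 150 mg/kg, called the combination below. Wnt-C59 blocks porcupine, an acyltransferase without which Wnt proteins are not secreted. Belumosudil is an inhibitor of ROCK2, a kinase of the cytoskeleton. All groups share the transplant itself, and no group of untransplanted mice or of belumosudil alone was analysed here. Strain, sex, age, skin site and any pooling of animals are not given in the sources used here. The labels number the libraries of a group as replicates without saying that each is a separate mouse, so p-values measure the spread between these samples.

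Hair fibres are made by matrix cells at the base of a growing follicle. These cells leave the matrix, enter the cortex or cuticle of the shaft and assemble filaments from pairs of one acidic (type I) and one basic (type II) hard keratin. Krt31, Krt33a, Krt33b, Krt34 and Krt35 encode type I partners, and Krt81 and Krt86 type II partners. Krt35 is known as one of the first to be switched on, in the matrix and lower shaft, whereas the others are known mainly from the cortex above it. Follicles make shafts in the growth phase (anagen) and not in rest. HOXC13, FOXN1 and the Wnt effector LEF1 are regulators known to act on hair keratin genes.

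Promoters of 3 members were in the RefSeq table for GRCm38.p6, and they are shown because these type I genes are neighbours that rose and fell together in the libraries. Each runs from 250 bases before to 50 bases after the annotated start, on the minus strand of chromosome 11, at chr11:100029819-100030118 for Krt33b, chr11:100041505-100041804 for Krt34 and chr11:100050502-100050801 for Krt31. Capitals mark TATAAA, the TATA box, and CTTTGA or CTTTGT on either strand, the core that LEF1 and its TCF relatives bind.
Krt33b promoter: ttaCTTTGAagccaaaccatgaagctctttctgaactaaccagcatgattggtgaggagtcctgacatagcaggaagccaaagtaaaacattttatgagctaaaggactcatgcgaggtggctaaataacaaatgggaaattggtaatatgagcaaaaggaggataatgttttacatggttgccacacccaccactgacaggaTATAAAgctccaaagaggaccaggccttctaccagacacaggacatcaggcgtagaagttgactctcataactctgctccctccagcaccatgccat
Krt34 promoter: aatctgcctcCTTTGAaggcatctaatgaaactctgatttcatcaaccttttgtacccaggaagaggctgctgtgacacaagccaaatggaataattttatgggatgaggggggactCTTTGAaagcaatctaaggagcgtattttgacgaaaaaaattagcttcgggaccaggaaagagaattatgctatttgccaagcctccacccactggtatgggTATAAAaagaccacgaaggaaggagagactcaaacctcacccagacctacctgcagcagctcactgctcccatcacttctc
Krt31 promoter: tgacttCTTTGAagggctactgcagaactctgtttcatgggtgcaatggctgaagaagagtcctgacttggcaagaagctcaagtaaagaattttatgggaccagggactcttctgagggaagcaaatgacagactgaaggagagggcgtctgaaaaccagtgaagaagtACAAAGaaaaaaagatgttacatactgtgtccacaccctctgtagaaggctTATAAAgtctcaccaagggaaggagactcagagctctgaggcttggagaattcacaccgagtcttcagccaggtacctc
Each of the 3 held 1 TATA box, which began 47, 31 and 29 bases before the start in Krt33b, Krt34 and Krt31. Each also held a LEF1/TCF core near the far end of the window, at positions -247, -240 and -244 from the start. Krt34 held another core at -133, and Krt31 one on the opposite strand at -80. Among 32851 promoters of the same length, 13.6% held TATAAA and 31.2% held CTTTGA or CTTTGT on either strand. ACGC, the core known for FOXN1, occurred 1 time in each of the 3 and in 55.3% of all promoters. The 3 windows were 65.5% to 71.4% identical in pairwise alignment. Among other hair keratins scanned in the same way, Krt32 held 2 TATA boxes and 1 LEF1/TCF core, at -247. Krt36 and Krt82 held neither a TATA box nor a LEF1/TCF core. ACGC occurred 1 time in Krt82 and not in Krt32 or Krt36. These matches are letters in a window and no binding was measured.

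Total estimated counts per library ranged from 16258690 to 20390744 in the 7 vehicle libraries and from 18992866 to 28779816 in the 8 treated libraries. Estimated counts that were not whole numbers made up 31.1% to 34.4% of the values above 0 in vehicle libraries and 44.8% to 60.6% in treated ones, so a difference in how the libraries were made or counted cannot be told apart from treatment. Levels are given in CPM (a counts-per-million scale, with library sizes scaled by TMM). Keratins and other markers of the interfollicular epidermis summed to 10455 to 18330 CPM in the syngeneic group. They summed to 24122 to 41025 CPM in the allogeneic group, 30274 to 51780 with Wnt-C59 and 29745 to 44236 with the combination. Markers of skeletal muscle summed to 2740 to 4686 CPM in the syngeneic group, 6653 to 26008 in the allogeneic group and 12157 to 38968 with Wnt-C59. In the combination they summed to 25215, 9578, 1954 and 15.7 CPM in libraries 2, 3, 4 and 5. Treated libraries carry the numbers of their table columns. In bulk skin, fewer hair-making cells and less keratin RNA per cell cannot be told apart.

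In syngeneic skin all 7 hair shaft keratins were abundant, and together they reached 443, 4848, 4267 and 2233 CPM in libraries 1 to 4. Krt35 was the most even of them, at 254, 578, 600 and 465 CPM. Its highest library was 2.36-fold above its lowest, with a coefficient of variation of 33.3%. The other 6 members spread 13.7-fold (Krt31) to 33.1-fold (Krt81) across the same 4 libraries.

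Among the type I cortex keratins, Krt33a stood at 46.2, 913, 698 and 408 CPM in the 4 syngeneic libraries. Krt31 stood at 43.2, 593, 468 and 307 CPM. Library 1 was the lowest for both and library 2 the highest. Krt34 ranged from 25.7 to 712 CPM and Krt33b from 22.4 to 438. Among the type II partners, Krt81 stood at 25.4, 841, 777 and 298 CPM, and Krt86 ranged from 25.6 to 772. Library 1 was thus low for each cortex keratin while it kept 254 CPM of Krt35.

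**Figure D1:**
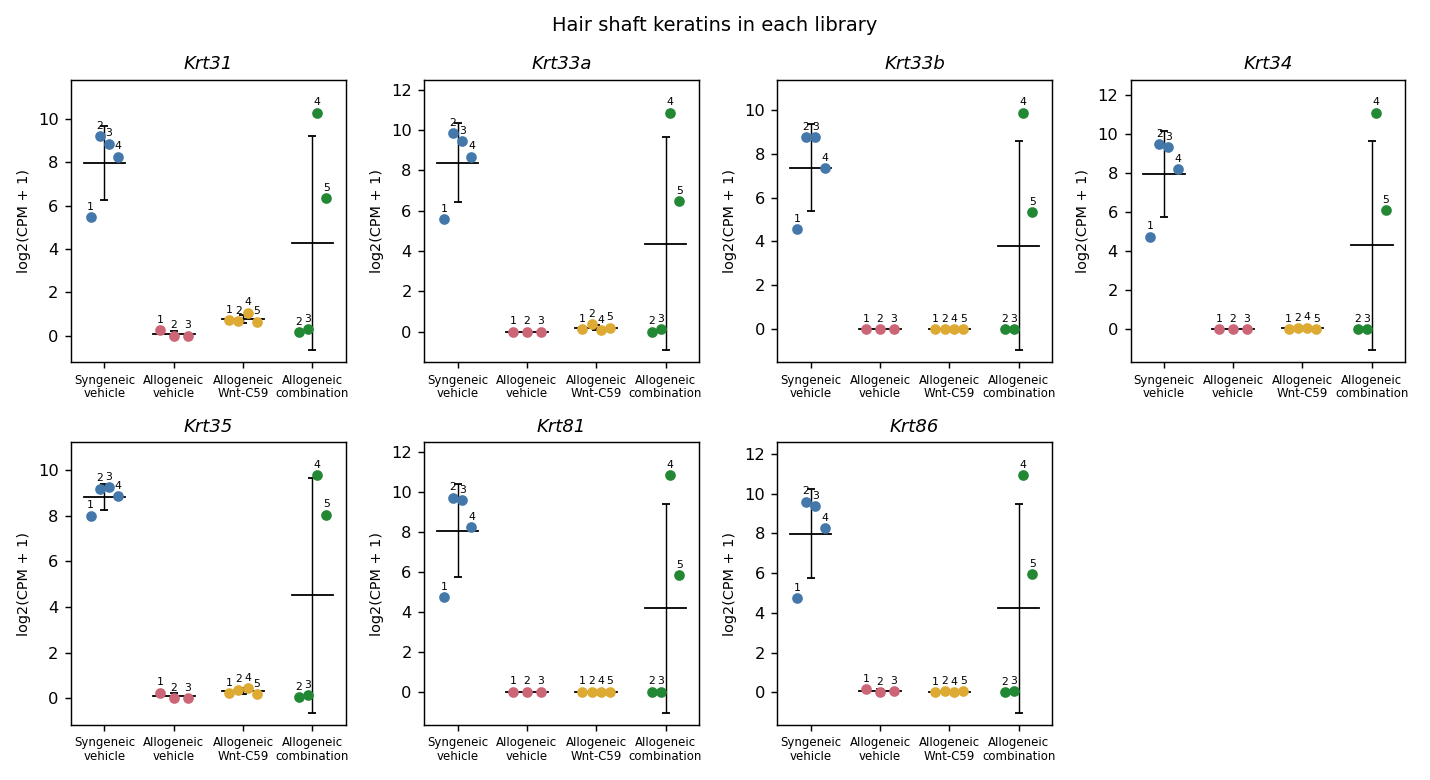
Level of each hair shaft keratin in every library, as log2(CPM + 1) on the vertical axis, by group on the horizontal axis; points are libraries with their numbers, bars the mean and SD. The syngeneic libraries are high, the allogeneic and Wnt-C59 libraries lie near 0, and the combination is split, with library 4 on top, library 5 next and libraries 2 and 3 near 0.

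In allogeneic skin given vehicle the hair shaft keratins were almost absent from the libraries. Of the 7 members, 5 fell against the syngeneic group (edgeR quasi-likelihood test, Benjamini-Hochberg adjusted p under 0.05 over all genes tested). Krt33b and Krt81 did not pass, although they too had 0 counts in each of the 3 allogeneic libraries. All 7 had groups that did not overlap. Among all genes tested, 15.1% fell and 19.9% were lower without overlap.

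Krt35 had 3 counts in allogeneic library 1 and none in libraries 2 and 3, or 0.182, 0 and 0 CPM. Its mean in the syngeneic group was 474 ± 158 CPM (SD, n = 4). With the allogeneic level set by the 3 counts over the 3 libraries together, Krt35 was 8048-fold higher in the syngeneic group (95% counting interval 2754 to 39028), and its adjusted p was 0.0120 in edgeR. Krt31 likewise had 3 counts, all in library 1, and was 5987-fold lower than in the syngeneic group (counting interval 2049 to 29032, edgeR adjusted p = 0.0186). Krt86 was 7452-fold lower (counting interval 2550 to 36135, edgeR adjusted p = 0.0271). These intervals cover counting error only.

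The remaining members had no count in any allogeneic library, so their folds are lower bounds set by 3 counts per library. Krt33a was at least 2921-fold lower (edgeR adjusted p = 0.0353) and Krt34 at least 2340-fold lower (edgeR adjusted p = 0.0444). Krt81 was at least 2744-fold lower and Krt33b at least 1500-fold lower, with edgeR adjusted p of 0.0995 and 0.0985. The median log2 difference of the 7 members, with members at 0 set to their bound, was -11.51, against -0.07 over all genes tested.

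The number of members called depended on the fit, from 0 with limma-voom to 7 with DESeq2 or with only these 2 groups fitted. In that fit of 2 groups the edgeR adjusted p was 0.0172 for Krt33b and 0.0197 for Krt81. The number called fell to 0 without allogeneic library 1 or 3, to 1 without allogeneic library 2, and to 3 without syngeneic library 2, 3 or 4. It was 1 with the summed skeletal muscle markers as a covariate. Scaling by total counts left all 7 members lower, with 5 called, and changed the split of all genes called from 2732 higher and 2824 lower to 2084 and 4552.

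Under Wnt-C59 alone the shaft keratins stayed close to the allogeneic level in all 4 libraries. Krt31 was the highest of them, at 0.666, 0.595, 1.09 and 0.570 CPM in libraries 1, 2, 4 and 5. Krt35 stood at 0.154, 0.297, 0.364 and 0.142 CPM. Krt33b and Krt81 had 0 counts in every library of this group, and Krt33a reached at most 6 counts.

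None of the 7 passed the test against the allogeneic vehicle group in edgeR, and none had an unadjusted p under 0.05, while 50.8% of all genes tested were called in this comparison. Krt31 was 12.4-fold higher (counting interval 4.24 to 60.1) and its groups did not overlap, but its edgeR adjusted p was 0.445. Krt33a was the other member without overlap, with 0 counts in each allogeneic library and 1 to 6 counts with Wnt-C59, and no fold is given for it. Groups did not overlap upward for 26.4% of all genes. Krt35 was 4.06-fold higher (counting interval 1.39 to 19.7) with an edgeR adjusted p of 0.713. In other fits, Krt31 passed when the 2 groups were fitted alone (adjusted p = 0.0112), and DESeq2 called Krt33a and Krt34, which had at most 6 counts and 1 count in any library of either group.

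Against the syngeneic group, all 7 members fell with Wnt-C59, with edgeR adjusted p from 0.0036 for Krt35 to 0.0415 for Krt81, where 27% of all genes tested fell. No member overlapped between these groups, against 26% of all genes that were lower without overlap. Krt31 was 483-fold lower and Krt35 was 1982-fold lower. Krt81 was at least 3230-fold lower and Krt33b at least 1767-fold lower. Krt33b and Krt81 lost their call with any 1 library of either group left out, and no member was called with limma-voom or with the muscle markers as a covariate. With that covariate the log2 difference of Krt31 was -8.22 ± 4.68 (SE), against -8.91 ± 2.43 without it, and that of Krt35 was -9.77 ± 3.93 against -10.92 ± 2.52. Scaling by total counts left the 7 calls in place and changed the split of all genes from 4854 higher and 5044 lower to 3385 and 6125.

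With Wnt-C59 and belumosudil together, the 4 libraries did not behave alike. Krt35 stood at 0.0388 and 0.0961 CPM in libraries 2 and 3, and at 871 and 263 CPM in libraries 4 and 5. Krt33a stood at 0, 0.0961, 1860 and 86.9 CPM in the same order. Krt81 had 0 counts in libraries 2 and 3, and 1828 and 56.0 CPM in libraries 4 and 5.

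Krt31 followed the same order at 0.116, 0.240, 1265 and 81.0 CPM, and so did Krt34 at 0, 0, 2176 and 66.4 CPM. Krt33b stood at 0, 0, 948 and 39.8 CPM. Krt86 stood at 0, 0.0481, 1944 and 60.7 CPM. Library 4 lay above every syngeneic library for all 7 members, and libraries 2 and 3 lay below every syngeneic library. Library 5 lay within the syngeneic range for each member. The 7 members took 0.994% of all counts in combination library 4, against 0.545% in syngeneic library 2, the highest of the other groups.

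Against the allogeneic vehicle group, 5 of the 7 members rose in edgeR, where 27.1% of all genes tested rose. Krt35 averaged 283 ± 411 CPM (SD, n = 4) and passed at an edgeR adjusted p of 0.0076. Krt31 averaged 337 ± 620 CPM (adjusted p = 0.0099 in edgeR), and Krt86, Krt33a and Krt34 passed at 0.0140, 0.0203 and 0.0235. Krt33b and Krt81 both had an edgeR adjusted p of 0.0668. The groups overlapped for all 7 members, with combination libraries 2 and 3 at 0 to 0.240 CPM, while 25.6% of all genes were higher without overlap.

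The number of members called changed with the fit. No member was called when only these 2 groups were fitted, with limma-voom, or with the muscle markers as a covariate, and 7 were called with DESeq2. Without allogeneic library 1, 2 or 3 the count was 3, 2 and 2, and it was 7 without combination library 2 or 3. Without combination library 4 the log2 difference of Krt31 went from 12.33 to 8.70 and that of Krt35 from 12.09 to 10.40.

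Within the combination, skeletal muscle markers were higher in libraries 2 and 3 (25215 and 9578 CPM), where shaft keratins were near 0, than in libraries 4 and 5 (1954 and 15.7 CPM). Between libraries 4 and 5, library 4 was the higher in both. No member of the muscle list passed the test in any comparison. The level of T cell markers was 24.6 to 48.2 CPM across the 4 combination libraries and 22.7 to 35.0 with Wnt-C59 alone. It was 4.12 to 7.31 in the syngeneic group and 52.0 to 83.3 in the allogeneic group. Macrophage markers summed to 964 to 1707 CPM in the combination and 848 to 1361 with Wnt-C59 alone. They summed to 341 to 618 in the syngeneic group and 2736 to 3693 in the allogeneic group. Immune markers were thus also below the allogeneic range with Wnt-C59 alone, where the shaft keratins stayed near 0. The part of immune cell content in the keratin levels was not tested.

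Between the combination and Wnt-C59 alone, none of the 7 members passed in edgeR, with adjusted p from 0.0814 for Krt35 to 0.171 for Krt81. All 7 had an unadjusted p under 0.05, and DESeq2 called all 7 as higher. In edgeR 0.231% of all genes tested, 43 genes, were called in this comparison, and DESeq2 called 1516. Krt31 was 461-fold higher on average and Krt35 1184-fold higher, with groups that overlapped for every member and 5.81% of all genes higher without overlap. Without combination library 4 the log2 difference went from 8.84 to 5.21 for Krt31 and from 10.18 to 8.49 for Krt35.

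Against the syngeneic group, the combination did not pass for any member (0 with an unadjusted p under 0.05, 0 in DESeq2), where 54.1% of all genes tested were called. The log2 differences ran from -0.74 ± 1.58 (SE) for Krt35 to 0.44 ± 2.07 for Krt34. Intervals this wide do not show that the levels were alike. With limma-voom, which averages on a log scale, all 7 were called lower, with adjusted p from 0.0146 to 0.0287. Without combination library 4 the log2 differences were all negative, from -2.44 for Krt35 to -4.70 for Krt81, and none was called. Scaling by total counts turned Krt86 from 0.19 to -0.09 on the log2 scale and changed the split of all genes from 5013 higher and 5068 lower to 3451 and 6381. By mean CPM the syngeneic and combination groups ranked above Wnt-C59 and allogeneic vehicle for all 7 members. In edgeR no member passed between the syngeneic group and the combination, between the combination and Wnt-C59, or between Wnt-C59 and allogeneic vehicle, and Krt33b and Krt81 did not pass between allogeneic vehicle and either of the groups ranked highest.

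The members did not keep a fixed ratio to one another. In 6 libraries, the 4 syngeneic ones and combination libraries 4 and 5, every member had at least 100 counts, and levels were compared per kilobase of transcript. Krt35 was the highest member per kilobase in syngeneic libraries 1 and 4 and in combination library 5. It was the lowest in combination library 4.

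Krt35 stood at 9.81, 0.803, 0.960 and 1.59 times the median of the other 6 in syngeneic libraries 1 to 4. The ratio was 0.510 and 4.23 in combination libraries 4 and 5. The 2 libraries with the least hair keratin, syngeneic 1 (443 CPM in sum) and combination 5 (654 CPM), had the 2 highest ratios, and combination library 4, with 10891 CPM, had the lowest. Across the 6 libraries Krt35 varied 3.43-fold, whereas Krt34 varied 84.8-fold, Krt86 75.9-fold and Krt81 72.0-fold. The sum holds the same 6 members whose median is the denominator of the ratio, so the sum and the ratio are not independent. The ratio of Krt35 to the rest was a description of 6 libraries and was not tested.

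**Figure D2:**
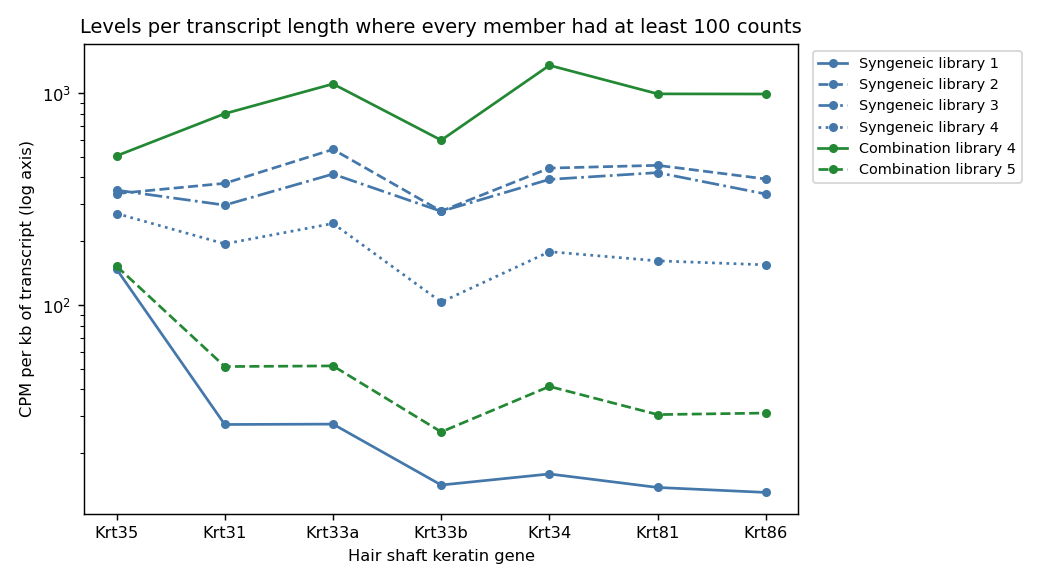
CPM per kilobase of transcript (log axis) of each hair shaft keratin in the 6 libraries where every member had at least 100 counts, 1 line per library, blue for syngeneic and green for the combination. The lines of syngeneic library 1 and combination library 5 drop from Krt35 to the other members, and the line of combination library 4 climbs.

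Mean levels per kilobase in the syngeneic group ran from 168 ± 131 CPM per kilobase (SD, n = 4) for Krt33b to 307 ± 223 for Krt33a. No 2 neighbours in that order differed beyond these SDs. Some of this order is uncertain because the genes are near copies. Transcripts of Krt81 and Krt86 were 88.1% identical, and 28.96% of all 100-base windows of Krt81 and 24.6% of those of Krt86 occurred unchanged in another of the 9 hair keratins compared, the 7 members and the type II copies Krt83 and Krt87. For Krt31, Krt33a, Krt33b and Krt34 this share was 4.05% to 17.5%, and for Krt35 it was 0.185%. When near copies were summed, Krt33a with Krt33b and Krt81 with Krt83, Krt86 and Krt87, both sums passed as lower in allogeneic than in syngeneic skin (edgeR adjusted p = 0.0343 and 0.0173) and as higher in the combination than in allogeneic skin (0.0196 and 0.0091).

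The other genes of the follicle were counted by list. For comparison, 15.1% of all genes tested fell in allogeneic against syngeneic skin. Against the allogeneic group, 24.6% rose and 26.2% fell with Wnt-C59, and 27.1% rose and 27.4% fell with the combination. Of 8 other hair keratins tested, 6 fell in allogeneic against syngeneic skin (0 with limma-voom, 3 without allogeneic library 1 or 2, 1 without library 3 and 3 with the muscle covariate). Krt32, a type I keratin of the hair cuticle, averaged 133 ± 69.0 CPM in the syngeneic group (SD, n = 4) and 0.197 ± 0.250 in the allogeneic group (SD, n = 3; adjusted p = 0.0053 in edgeR). Krt82, a type II cuticle keratin, and Krt36 also fell (adjusted p = 0.0121 and 0.0171). With Wnt-C59, 0 of the 8 passed against the allogeneic group in edgeR (3 rose in DESeq2), with Krt32 closest at 5.40 ± 2.00 CPM (n = 4) and an edgeR adjusted p of 0.0547. With the combination, 7 of the 8 rose against the allogeneic group, 4 without allogeneic library 3, 2 with the muscle covariate and 0 with limma-voom.

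Among 10 genes of shaft structure and cross-linking, 5 fell in allogeneic against syngeneic skin and 0 rose. The number that fell was 1 with limma-voom, 7 with DESeq2, 3 with no filter or without syngeneic library 2, 3 or 4, and 2 with any 1 allogeneic library left out or with the muscle covariate. S100a3, a calcium-binding protein of the hair cuticle, averaged 758 ± 375 CPM in the syngeneic group (SD, n = 4) and 0.439 ± 0.305 in the allogeneic group (SD, n = 3; edgeR adjusted p = 0.0077). Dsg4, the desmosomal cadherin of the shaft, and Padi3, a peptidylarginine deiminase that modifies follicle proteins, fell with it (edgeR adjusted p = 0.0154 and 0.0181). With Wnt-C59 1 gene of the list changed against the allogeneic group, and it fell (0 without allogeneic library 1). This was Dsc2, a desmosomal cadherin that is also made in other epithelia, at 219, 11.1 and 65.5 CPM in the allogeneic libraries and 5.22 to 8.47 with Wnt-C59. DESeq2 called 3 other genes of the list as higher. With the combination 6 of the 10 rose (2 with any 1 allogeneic library left out, 4 without combination library 4, 1 with the muscle covariate and 0 with limma-voom). Dsc2, named for this comparison after its values were seen, fell again (edgeR adjusted p = 0.0451). It did not pass when allogeneic library 1 or 3 or combination library 2, 3 or 5 was left out. Nor did it pass with no filter, with these 2 groups alone or with the muscle covariate.

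Regulators of the hair matrix also differed. Of 12 tested, 9 fell in allogeneic against syngeneic skin. Hoxc13, a homeobox factor that hair keratin genes depend on, averaged 107 ± 29.6 CPM (SD, n = 4) in the syngeneic group and 3.10 ± 1.96 (n = 3) in the allogeneic group, with an edgeR adjusted p of 0.0034. Wnt10b, a Wnt ligand of the growing follicle, fell 11.4-fold and Bmp4, a signal for shaft differentiation, fell 6.02-fold (edgeR adjusted p = 0.0019 and 0.0026). Lef1, Shh and, for Wnt-C59, Wnt10a were chosen after their values were seen. Shh, a signal of the anagen matrix, was 21.8 ± 6.45 CPM in the syngeneic group and had 1 count in the allogeneic group.

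With Wnt-C59 alone, 3 of these 12 regulators rose against allogeneic vehicle and 1 fell, beside the 24.6% and 26.2% of all genes. Gata3, a factor of the inner root sheath, rose 2.24-fold and Bmp4 rose 4.55-fold (edgeR adjusted p = 0.0020 and 0.0034), and Wnt10a was the third. Prdm1 fell 2.7-fold (edgeR adjusted p = 0.0023). Lef1 did not pass in this comparison, at 4.77 ± 0.874 CPM (n = 3) in the allogeneic group and 3.70 ± 1.51 (n = 4) with Wnt-C59. With the combination, 9 rose and 1 fell against the allogeneic group, with 5 rising in limma-voom and with the muscle covariate and 1 falling in both. The fall was lost without allogeneic library 3 or combination library 5. Hoxc13 stood at 6.51, 9.90, 139 and 45.6 CPM in combination libraries 2 to 5, Lef1 at 2.36, 2.55, 26.3 and 26.2 CPM, and Shh at 0.233, 0.0481, 4.23 and 18.2 CPM. Shh was thus higher in library 5 than in library 4, the opposite of the shaft keratins, and Lef1 was about equal in both. Against the syngeneic group, the combination was lower in Lef1 and Wnt10b and higher in Wnt10a among the 12 (edgeR adjusted p = 0.0229, 0.0119 and 5.4e-05).

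**Figure D3:**
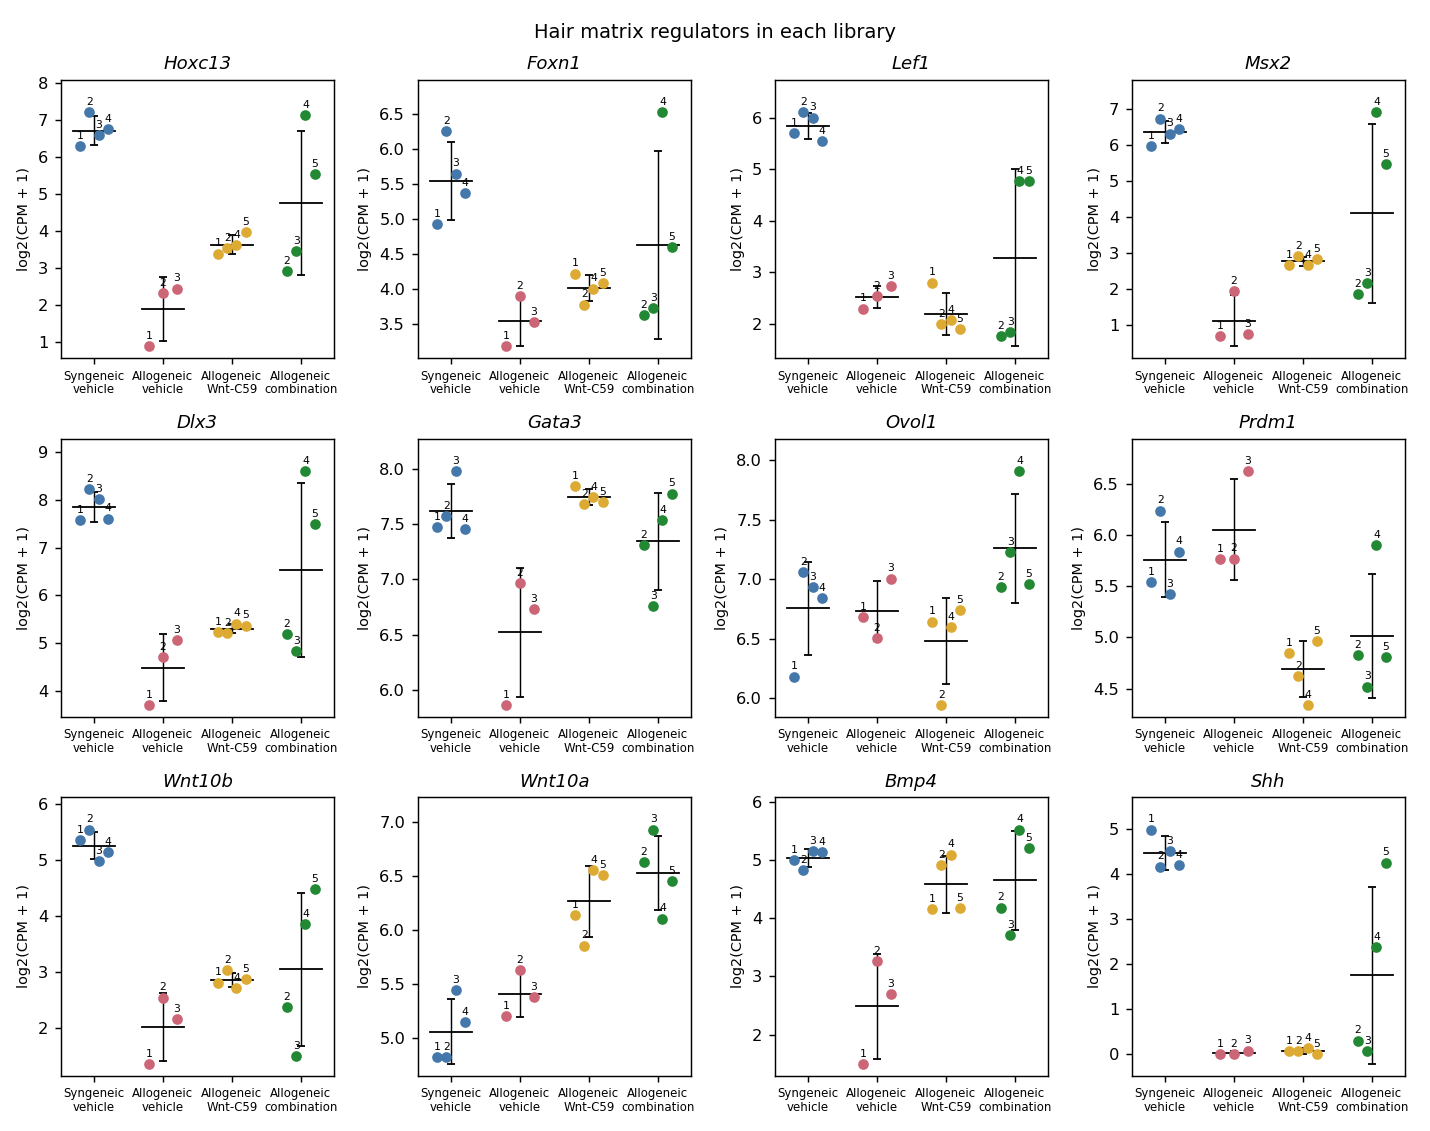
Level of each of the 12 hair matrix regulators in every library, as log2(CPM + 1) on the vertical axis, by group on the horizontal axis; points are libraries with their numbers, bars the mean and SD. Combination libraries 4 and 5 lie above libraries 2 and 3 for Hoxc13, Lef1 and Shh, and library 5 tops library 4 for Shh.

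The inner root sheath, which moulds the shaft as it rises, and the companion layer around it gave a further comparison, with 9 of 10 listed genes tested. In allogeneic against syngeneic skin 8 fell (2 with limma-voom, 4 without allogeneic library 1 or 2 or with the muscle covariate, and 3 without allogeneic library 3). With the combination against the allogeneic group 8 rose (5 without allogeneic library 1 or 3, 4 with the muscle covariate and 1 with limma-voom). Wnt-C59 alone raised 1 of the 9. This was Krt75, the keratin of the companion layer, at 3.16, 0.897 and 5.29 CPM in the allogeneic libraries and at 131, 259, 178 and 78.2 CPM in Wnt-C59 libraries 1, 2, 4 and 5 (edgeR adjusted p = 4.0e-04). Krt75 also stood at 143, 184, 1281 and 278 CPM in combination libraries 2 to 5, so that libraries 2 and 3, with at most 0.481 CPM of shaft keratins in sum, overlapped the Wnt-C59 group. The whole list summed to 151 and 194 CPM in combination libraries 2 and 3. It summed to 143, 270, 187 and 87.0 CPM in Wnt-C59 libraries 1, 2, 4 and 5, so Krt75 made up most of the sum in these libraries. The inner root sheath keratins Krt72 and Krt26 were at 0 CPM in combination libraries 2 and 3.

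Several outer root sheath and bulge genes mark the part of the follicle that persists through rest. Of the 8 listed, 7 fell in allogeneic against syngeneic skin. Against the allogeneic group, 5 of the 8 rose with Wnt-C59 and 7 of the 8 with the combination. Krt15, a keratin of the bulge, averaged 115 ± 49.2 CPM (SD, n = 3) in the allogeneic group and 4146 ± 1039 (n = 4) with Wnt-C59, and 2265 ± 86.3 (n = 4) with the combination. Krt15 was therefore far above the allogeneic level in all 8 treated libraries, 6 of which held at most 1.56 CPM of shaft keratins in sum. In the comparison of the combination with Wnt-C59, 0 genes of any of these 5 follicle lists passed in edgeR or limma-voom, and 1 outer root sheath or bulge gene passed in edgeR without combination library 5. DESeq2 called 8 of 8 other hair keratins, 6 of 10 shaft genes, 5 of 12 regulators, 7 of 9 inner root sheath and companion layer genes and 3 of 8 outer root sheath and bulge genes as higher.

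**Figure D4:**
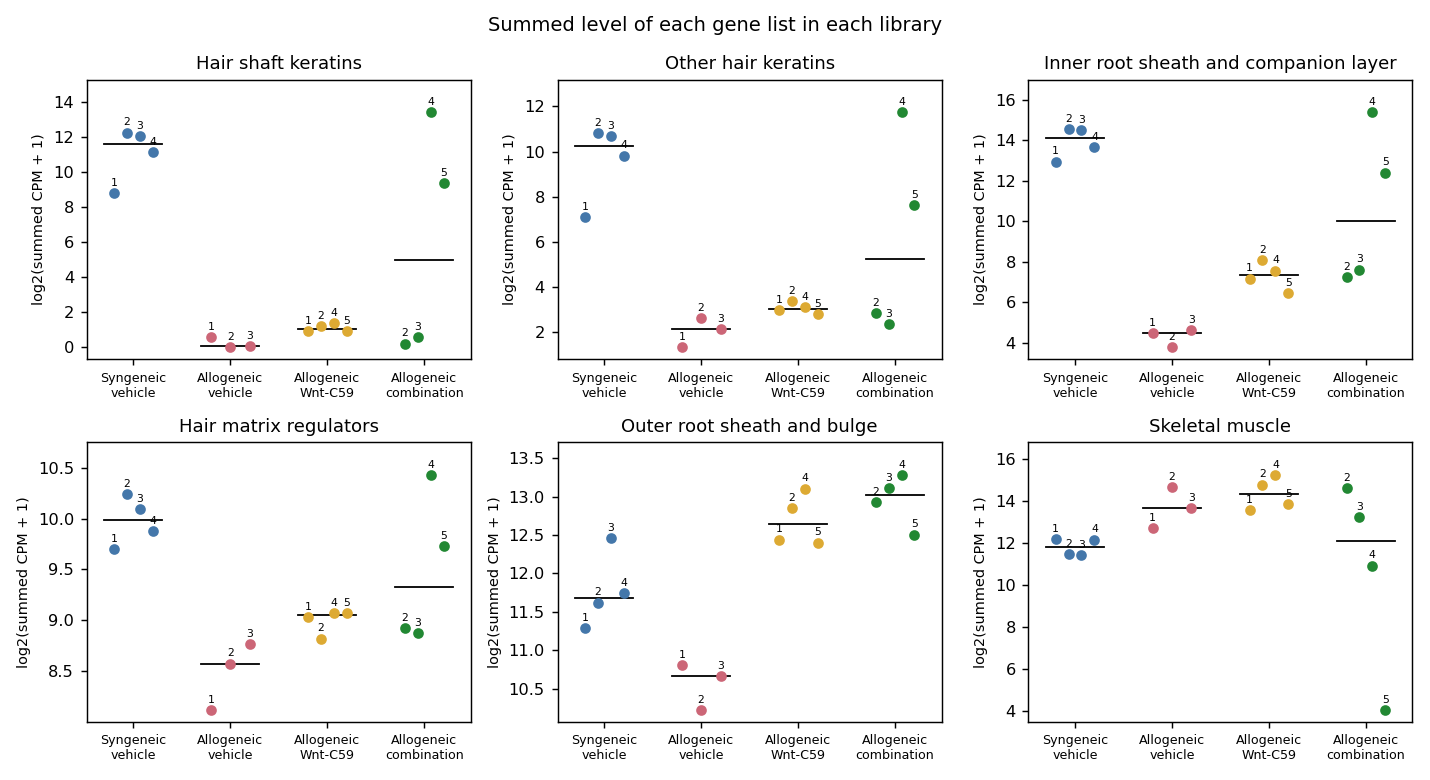
Summed level of each gene list in every library, as log2(summed CPM + 1) on the vertical axis, by group on the horizontal axis; points are libraries with their numbers and bars the group medians. Combination libraries 2 and 3 lie within the allogeneic vehicle range for shaft keratins, below Wnt-C59. They lie within the Wnt-C59 range for the inner root sheath and companion layer sum, most of which is Krt75 of the companion layer in both. The outer root sheath and bulge sum lies above the allogeneic vehicle group in all 8 treated libraries. Skeletal muscle markers are lowest in combination library 5.

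The genes whose pattern was most like the members were found by the root-mean-square difference between centred log2(CPM + 1) profiles over the 15 libraries. The 8 closest were Krt87, Krt83, Krtap11-1, Krtap3-1, Krt72, Krtap7-1, Krtap8-1 and Krt26, at differences of 0.209 to 0.557 log2 units from the mean profile of the 7 members. Krt83 and Krt87 are type II hair keratins and near copies of Krt81 and Krt86, so shared reads may add to their likeness. Krtap11-1, Krtap3-1, Krtap7-1 and Krtap8-1 encode keratin-associated proteins that bind hair keratin filaments to each other. Krt72 and Krt26 are keratins of the inner root sheath. Among the members, Krt33a lay closest to the mean profile (0.175) and Krt35 farthest (0.795), beyond all 8 of these other genes.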

How the data were processed

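The data are 15 RNA-seq libraries of mouse skin in 4 groups. The authors' estimated counts per gene were deposited as 1 table under Ensembl identifiers, with fractions and no scaling, per the file headers. FastQC, Trim Galore, HISAT2, featureCounts and build GRCm39 are named in the submitters' processing notes, without versions, and strandedness is not given in the sources used here, so reads from antisense genes cannot be told apart. Combination columns carry a code that no label spells out and were matched because no other group was left. Symbols came from GENCODE M21 by identifier (51276 of 56059 rows, 91.5%), and transcript lengths and promoters from GRCm38 annotations, which is not the study's build.

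Estimated counts were rounded, since the design had assumed whole counts, scaled by TMM, filtered by filterByExpr (18651 genes) and tested in edgeR 4.0.16 (R 4.3.3) by a robust quasi-likelihood fit of all 15 libraries with group as the only term. Genes passed at a Benjamini-Hochberg adjusted p under 0.05 over all genes tested. Folds are ratios of mean CPM. Where a group had no count, its level was set to the floor of 3 counts per library (0.116 to 0.182 CPM). Where it had 1 to 3 counts in all, its level was that sum times the mean CPM of 1 count divided by its number of libraries, which differs slightly from its mean CPM, and an exact 95% Poisson interval is given. Alternatives were DESeq2 1.42.0, limma-voom (limma 3.58.1), other scalings, no filter, unrounded counts, fits of 2 groups, each library left out, a replicate block and sums of near copies; the muscle covariate was chosen after seeing the data. The scripts were tested on simulated data. Members and lists were chosen with earlier results of these data known. Every member is named. From each other list at most 3 genes per comparison are named, those with the smallest adjusted p, or the 1 smallest where none passed. Lef1, Shh, Wnt10a for Wnt-C59 and Dsc2 for the combination are outside this rule and were chosen after their values were seen. Also named are the 8 genes most like the members among those averaging at least 5 CPM in a group.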

Additional observations from a re-analysis of the deposited data

Results flagged for a closer look

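In the combination group, library 4 stood so far above the other 3 libraries that its gap to the nearest took most of the group's range for 6 of the 7 hair shaft keratins and for their sum. Krt34 was 2176 CPM there and 66.4 CPM in the next library, Krt86 was 1944 against 60.7, Krt33a was 1860 against 86.9, and Krt81 was 1828 against 56.0. Krt31 was 1265 against 81.0 and Krt33b was 948 against 39.8. The summed level of the members was 10891 CPM against 654. Krt35, at 871 against 263 CPM, did not stand apart by this measure. The measure was taken on CPM and not on a log scale. A chance rate of about 1 in 20 groups is for values with a normal distribution. Krt34 ran from 0 to 2176 CPM in this group, so that rate cannot be used here. These 7 values come from 1 library, so they are not independent of each other. The next library was number 5 in each case, and it lay within the syngeneic range for every member.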

How the results depend on the processing

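The members with 0 counts in a whole group limit what can be tested: their folds are bounds, and their calls moved with the fit. Of the 7 members, 5 were called in allogeneic against syngeneic skin. All 7 were called in DESeq2 and in a fit of the 2 groups alone. The count was 3 without a filter on low counts and 1 with muscle markers as a covariate. It was 0 with limma-voom and 0 to 5 with 1 library left out. Wnt-C59 against allogeneic gave 0, with 2 in DESeq2 and 1 in a fit of the 2 groups alone. The combination against allogeneic gave 5, with 7 in DESeq2 and 2 to 7 with 1 library left out. It gave 0 in limma-voom, in the fit of the 2 groups and with the muscle covariate. The combination against Wnt-C59 gave 0, with 7 in DESeq2, and against syngeneic 0, with 7 in limma-voom. Wnt-C59 against syngeneic gave 7, with 0 in limma-voom and with the muscle covariate, and 5 with any 1 library left out. The cause of these changes was not tested.

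All genes called between the combination and Wnt-C59 numbered 43, against 1516 in DESeq2, 18 in the fit of the 2 groups, 9 with the muscle covariate and 1 (without combination library 3) to 45 (without combination library 4) with 1 library left out. Scaling by total counts shifted the median log2 difference of all genes tested against the syngeneic group by -0.20 for allogeneic, -0.22 for Wnt-C59 and -0.26 for the combination.

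The log2 difference between the combination and the syngeneic group changed sign for 6 of the 7 members, none of which was called in edgeR. With 1 library left out it ran from -3.70 to 0.35 for Krt31, -4.16 to 0.37 for Krt33a, -4.32 to 0.31 for Krt33b, -4.22 to 0.86 for Krt34, -4.70 to 0.38 for Krt81 and -4.44 to 0.63 for Krt86, each lowest without combination library 4. Krt34 was -6.81 in limma-voom. Krt86 was -6.54 in limma-voom, -0.087 with total counts, -0.22 with the muscle covariate and -0.054 when summed with its near copies. Krt35 stayed negative in every fit. In the other 5 comparisons no member changed sign under an alternative, leaving out members for which both groups were at or under the floor.

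With the replicate number as a block in syngeneic and allogeneic libraries 1 to 3, 7 members and 2869 genes were called, against 5 and 5556. Same-numbered libraries did not deviate together (Pearson r across genes of -0.07, -0.11 and -0.07), and differently numbered ones gave r of -0.006 to 0.10. With only 3 libraries per group these values cannot settle whether the numbers pair the samples. No paired analysis was possible for the treated groups because their columns do not carry the replicate numbers of the labels.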
